A study of Mus musculus with 44 samples.

Results

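Transcript levels of the genes for proteasome subunits, activators, inhibitors and assembly factors were examined in mouse kidney by genotype and time of day. Members were all protein-coding genes whose symbol begins with Psma, Psmb, Psmc, Psmd, Psme, Psmf or Psmg. The rule took 50 of the 24733 genes with any value above 0, and 48 of these 50 averaged at least 1 TPM over all libraries and were tested among 12874 genes. TPM is an abundance normalised to transcript length and to the library's total. One symbol taken by the rule, Psmc3ip, belongs to a factor of meiotic recombination. It is kept apart from the subunits by role, but counts over the 48 tested members include it. The kidneys came from mice of strain 129SV, aged 8 to 12 weeks and fed only at night in both genotypes. Wild-type mice (WT) were compared with Bmal -/- mice (KO), which lack the clock activator encoded by Arntl. Polyadenylated RNA was measured at zeitgeber times (ZT) 0, 4, 8, 12, 16 and 20, with 2 libraries per genotype and time, hence 12 WT and 12 KO libraries. The structure of the knockout allele, and whether a library held RNA from 1 animal or a pool, are not given in the sources used here, so p-values measure the spread between these libraries.

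The proteasome degrades proteins tagged with ubiquitin. Its core particle is a barrel of outer alpha rings and inner beta rings, and the beta subunits encoded by Psmb5, Psmb6 and Psmb7 carry the proteolytic sites. In immune cells and under interferon these are replaced by Psmb8, Psmb9 and Psmb10 respectively, which gives the immunoproteasome, known for producing peptides for MHC class I. The regulatory particle, with ATPases (Psmc genes) and non-ATPase subunits (Psmd genes), binds, deubiquitinates and unfolds substrates, while the Psme proteins form alternative caps.

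Promoter windows of 300 bases, from 250 before to 50 after each start in RefSeq (GRCm38.p6), were held for 42 of the 50 members. Short motifs are shown for genes whose values recur below, because the factor encoded by Nfe2l1 acts on proteasome genes through antioxidant response elements and the protein missing in KO mice binds E-boxes. Each sequence runs 5′ to 3′ on the strand of its gene, with the motif in capitals. The element core was searched as TGACNNNGC and the E-box as CACGTG, both on either strand, and in no member did matches to both overlap.
Psmb5, element core, chr14:54618014-54618062, minus strand: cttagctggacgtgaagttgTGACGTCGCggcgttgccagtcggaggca
Psmb6, element core, chr11:70525328-70525356, plus strand: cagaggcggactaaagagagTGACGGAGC
Psmd9, element core, chr5:123228139-123228187, plus strand: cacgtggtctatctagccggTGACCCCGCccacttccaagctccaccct
Psmb10, E-box, chr8:105938483-105938528, minus strand: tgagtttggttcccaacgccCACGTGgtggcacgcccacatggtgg
Psme3, E-box, chr11:101316149-101316194, plus strand: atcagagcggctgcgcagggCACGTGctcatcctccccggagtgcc
The Psmb5 and Psmb6 stretches lie at the start of each gene, and the Psmd9 stretch begins with an E-box of its own. The Psmd9 stretch precedes a RefSeq start but lies inside the gene as annotated in GENCODE M21 (chr5:123169413-123250131, plus strand), far from the start of that annotation. The element core was found in 13.3% of 45 member windows and in 12.4% of all 32851 windows. The members with it were Psmb5, Psmb6, Psmc6, Psmd12, Psmd9 and Psme4. The E-box was found in 8.89% of member windows and in 7.15% of all, the 4 members being Psma4, Psmb10, Psmd9 and Psme3. Patterns of interferon signalling were also counted on both strands. TTCNNNGAA, bound by STAT factors, was in 6.67% of member windows against 8.3% of all (Psmb8, Psmd2 and Psmg1). GAAA repeated after a gap of 2 bases, bound by IRF factors, was in 11.1% against 3.44% (Psmb3, Psmd4, Psmd9, Psme1 and Psmg4). These are matches of letters only, and binding was not measured here.

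The libraries held 12398 to 12911 genes at or above 1 TPM, and mitochondrial genes took 38.0% to 42.5% of TPM in WT and 32.3% to 40.3% in KO. Each TPM column sums to the same total, so the read depth is unknown. Arntl was at 0.295 to 12.9 TPM in WT and at 4.19 to 6.28 TPM in KO, and a whole-gene value of this kind does not check the deletion. The library labelled KO ZT4 A stood apart from the other 11 KO libraries. Its Nr1d1, a repressor of the clock, was at 23.9 TPM against 1.24 to 3.46 in the others and 22.0 and 33.0 in WT at ZT4. Its Cry1 was at 1.04 TPM against 11.5 to 17.8 in the others and 1.203 and 0.845 in WT at ZT4. Its Alb was at 2.37 TPM against 0.164 to 0.586 in the others and 1.87 to 4.03 in WT. Its values for these genes lie with the WT libraries, so its label may be wrong. It is kept in KO as labelled, and results that rest on it are given with and without it. Kidney markers were high, among them Slc34a1 (mean 1512 TPM) and Umod (mean 1060 TPM), whereas the adrenal markers Cyp11b1, Cyp11a1 and Star all had means under 1 TPM.

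The immunoproteasome catalytic genes were expressed at a small fraction of the level of the constitutive subunit genes. TPM is scaled per transcript length, so levels can be set side by side between genes. Mean levels of the alpha ring genes with at least 1 TPM ran from 38.2 TPM (Psma5) to 117.6 TPM (Psma4). The beta ring genes without a proteolytic site ran from 62.7 TPM (Psmb2) to 238.8 TPM (Psmb4). The constitutive catalytic genes lay close together, with Psmb5 at 119.2, Psmb6 at 118.6 and Psmb7 at 101.9 TPM. Their immunoproteasome counterparts were at 8.85 TPM (Psmb8), 7.18 TPM (Psmb9) and 7.91 TPM (Psmb10). No library of an immunoproteasome gene reached the lowest library of any constitutive catalytic gene. The highest value of the former was 13.5 TPM (Psmb8 in WT) and the lowest of the latter 74.2 TPM (Psmb7 in KO).

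ATPase genes ran from 42.8 TPM (Psmc2) to 126.3 TPM (Psmc3) and the non-ATPase genes from 35.2 TPM (Psmd1) to 72.7 TPM (Psmd3). Assembly factors were lower. The core chaperones lay between 11.3 TPM (Psmg3) and 18.1 TPM (Psmg1), and the chaperones of the regulatory particle between 9.43 TPM (Psmd9) and 29.0 TPM (Psmd5). Psmf1, the inhibitor PI31, was at 15.0 TPM. Among activators, Psme1 was at 72.1, Psme3 at 38.4 and Psme4 at 27.7 TPM, while Psme2 was at 428.3 TPM. Psme1 and Psme2 encode subunits of the same interferon-inducible cap, PA28.

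The levels of 3 members rest mainly on transcripts not annotated as protein-coding. Of the Psme2 sum, 83.1% came from 1 retained-intron transcript and 3.54% from protein-coding ones. For Psmb4, 17.8% was protein-coding and 43.3% and 38.8% came from a pair of retained-intron transcripts. For Psmd13, 44.0% was protein-coding and 52.8% came from 1 transcript annotated for nonsense-mediated decay. How kallisto divided reads among such overlapping transcripts cannot be seen in the files, so the levels of these members are uncertain.

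Under the 1 TPM minimum were Psma8, the testis alpha subunit, at 0.0236 to 0.262 TPM over all libraries, and Psmb11, the thymus catalytic subunit, at 0.0797 to 0.209 TPM. Just inside the minimum were Psme2b with a mean of 1.07 TPM and Psmc3ip with 2.39 TPM. Psme2b is a retrocopy of Psme2, so reads may have been divided between them. The 4 annotated pseudogenes of members had means of at most 0.161 TPM.

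**Figure D1:**
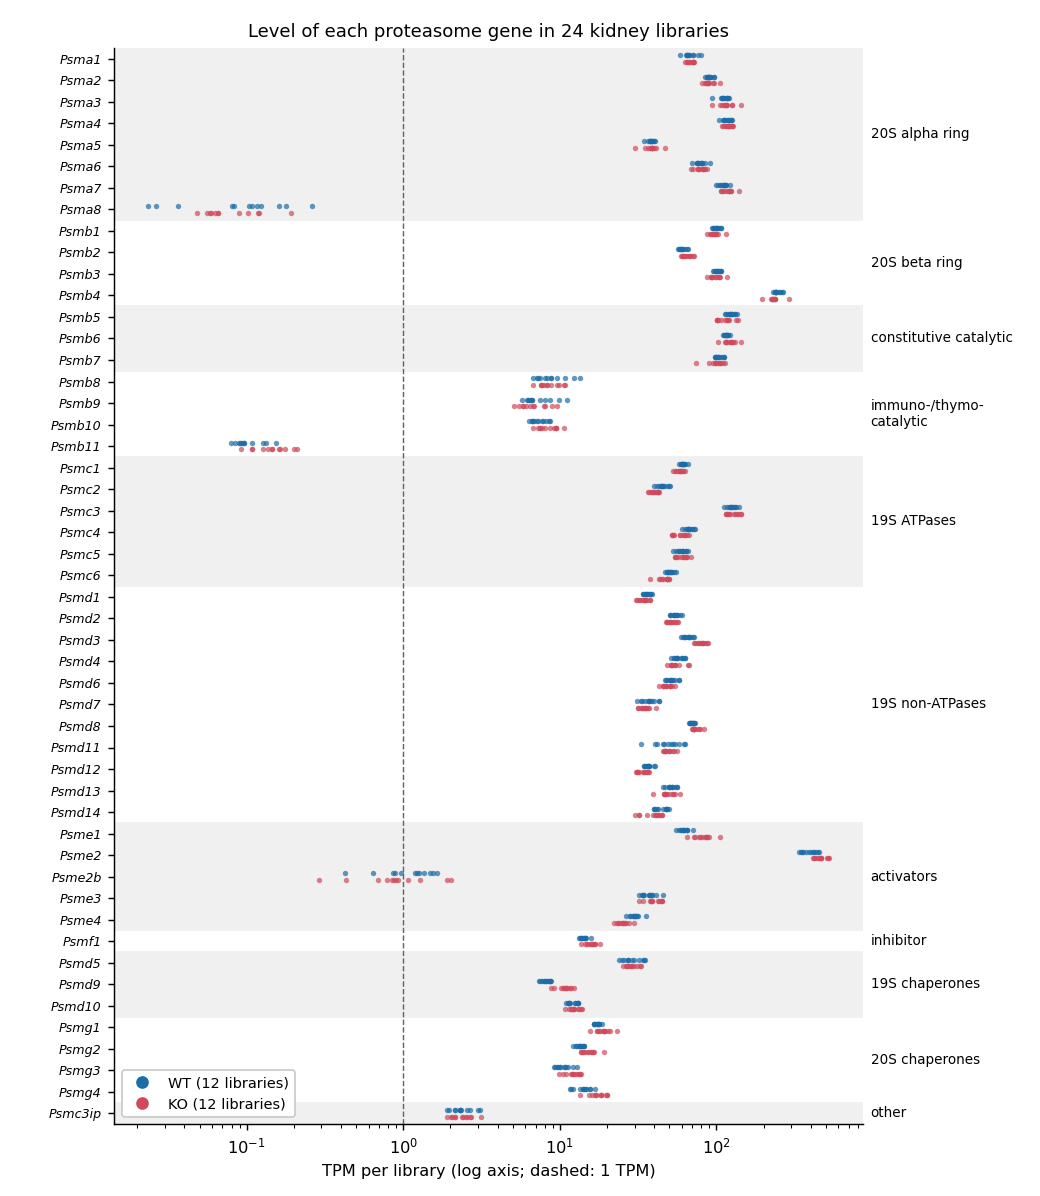
TPM of each of the 50 proteasome genes on a log axis, by role, with 1 point per library (blue, 12 WT libraries; red, 12 KO libraries) and a dashed line at 1 TPM. Psmb8, Psmb9 and Psmb10 lie below 14 TPM in every library, all constitutive catalytic genes above 74 TPM, and Psma8 and Psmb11 below 1 TPM.

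The genotype comparison asks how steady-state levels differ without the clock activator, averaged over the 6 times. In KO, 14 of the 48 tested members were higher, 11 were lower and 23 did not pass on the deposited TPM (limma, adjusted p under 0.05). Of all 12874 genes tested, 60.9% passed, 50.9% as higher and 10% as lower in KO. The median log2 change of members was -0.00 against 0.15 for all genes, and 39 of 48 members lay below the median of all genes. Differences were small, with 4 members at or above 0.25 in absolute log2 change and 0 at or above 0.5.

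Counts of direction depended on how libraries were scaled, because the median of all genes moved from 0.15 to 0.00 under median-of-ratios scaling. With that scaling 4 members were higher and 29 lower (22.1% and 22.2% of all genes), and their median was -0.15. When the 20 highest genes were taken out of every library's total, 7 were higher and 20 lower (31.5% and 14.8% of all genes). Psmd3, Psmd9, Psme1 and Psmg4 were higher and 11 members lower under all 3 scalings, where 22.1% of all genes were higher and 9.99% lower. Leaving out the library labelled KO ZT4 A gave 14 and 11 again (52.7% and 10.3% of all genes). In bulk tissue, fewer cells of a type and less RNA per cell cannot be told apart.

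Within the regulatory particle, 4 of the 6 ATPase genes fell and none rose as deposited, where 10% of all genes were lower and 50.9% higher in KO. These unfoldases form the ring that feeds substrates into the core. Psmc4 ranged from 60.4 to 72.7 TPM in WT (median 66.4) and from 52.1 to 66.7 TPM in KO (median 60.0). It was lower in KO at 6 of 6 times, and its ranges overlapped. Its log2 change was -0.18 (SE 0.04, limma adjusted p = 0.000192). Psmc2 fell by 0.17 on the log2 scale (SE 0.03, limma adjusted p = 0.000302), Psmc6 by 0.12 and Psmc1 by 0.07. All 4 were also lower under the other scalings, though Psmc1 passed in only 12 of the 24 fits without 1 library. Psmc3 and Psmc5 had changes of 0.02 each as deposited and did not pass, but passed as lower under median-of-ratios scaling (-0.13 each).

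Of the 11 non-ATPase genes, 5 fell and 2 rose as deposited, against the same 10% and 50.9% of all genes. The 5 were Psmd14, which encodes the deubiquitinase of the lid, Psmd12, Psmd6, Psmd2 and Psmd1, and they were lower under all 3 scalings. Psmd14 ran from 40.0 to 49.5 TPM in WT (median 46.7) and from 30.0 to 45.0 TPM in KO (median 40.9), with overlap. It fell by 0.21 (SE 0.05, limma adjusted p = 0.000726), and the changes of the other 4 ran from -0.13 to -0.08. Psmd3, a scaffold subunit of the lid, went the other way. Its WT libraries lay between 59.6 and 72.4 TPM (median 65.8) and its KO libraries between 71.9 and 88.9 TPM (median 80.3), so the groups met only at their edges. It rose by 0.29 (SE 0.04, limma adjusted p = 2.18e-06) and was higher in KO at 6 of 6 times. Psmd8 rose by 0.08 as deposited but lay at -0.07 under median-of-ratios scaling, where it did not pass.

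Core particle genes changed little on the deposited TPM, where 50.9% of all genes were higher and 10% lower in KO. As deposited, 1 of 7 tested alpha genes (Psma7, 0.10) and 1 of 4 beta genes without a proteolytic site (Psmb2, 0.10) passed as higher, and both turned to -0.05 and did not pass under median-of-ratios scaling. Psma7 also did not pass with protein-coding transcripts alone (limma adjusted p = 0.221), and passed in 8 of 24 fits without 1 library. The other 6 alpha genes had changes between -0.01 and 0.05. Under median-of-ratios scaling 5 of 7 alpha genes and 3 of these 4 beta genes passed as lower, against 22.2% of all genes. The median changes of the alpha and beta groups were then -0.13 and -0.19.

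Among the constitutive catalytic genes Psmb5, the chymotrypsin-like site, fell. It ranged from 114.1 to 135.8 TPM in WT (median 123.7) and from 101.0 to 138.1 TPM in KO (median 114.9). Several KO libraries lay above the lowest WT value, among them both at ZT0 (117.9 and 120.4 TPM), so the genotypes overlapped. The library labelled KO ZT4 A at 134.3 and KO ZT8 replicate A at 138.1 TPM stood with the highest WT libraries. The change was -0.13 (SE 0.04, limma adjusted p = 0.00804), lower at 6 of 6 times, and it was -0.15 without the first of these. Psmb6 (0.07, limma adjusted p = 0.102) and Psmb7 (-0.06, limma adjusted p = 0.245) did not pass as deposited, and Psmb7 passed as lower under median-of-ratios scaling (-0.21).

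Of the immunoproteasome catalytic genes, Psmb10 passed as higher as deposited. It ran from 6.40 to 8.65 TPM in WT (median 7.18) and from 6.77 to 10.6 TPM in KO (median 8.34), with overlap. The change was 0.19 (SE 0.07, limma adjusted p = 0.0221), but 0.04 under median-of-ratios scaling, where it did not pass. Psmb8 (-0.05, limma adjusted p = 0.667) and Psmb9 (-0.11, limma adjusted p = 0.341) did not pass as deposited. Their standard errors of 0.10 were wider than the 0.04 to 0.05 of the constitutive partners. Psmb9 passed as lower under median-of-ratios scaling (-0.26).

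Activators and assembly factors held the largest increases. Psme1 ran from 54.9 to 71.3 TPM in WT (median 61.6) and from 64.6 to 106.0 TPM in KO (median 82.2). Its lowest KO value was that of the library labelled KO ZT4 A. Without that library the lowest KO value, 72.1 TPM, lay just above the highest WT value, 71.3 TPM. The share of all genes whose genotypes separate without that library is not given here. Psme1 rose by 0.40 (SE 0.06, limma adjusted p = 1.47e-05) and by 0.43 without that library. Psme2 rose by 0.23 (SE 0.05, limma adjusted p = 0.000442), but the call was lost under median-of-ratios scaling (0.08) and with protein-coding transcripts alone (0.27, limma adjusted p = 0.0577). Psme3, which encodes the nuclear cap PA28 gamma, rose by 0.10 as deposited and lay at -0.05 under median-of-ratios scaling, where it did not pass. With protein-coding transcripts alone Psme3 did not pass either (0.08, limma adjusted p = 0.072). Psme4, which encodes the cap PA200, fell from a median of 29.9 TPM in WT (26.4 to 35.3) to 25.3 TPM in KO (22.3 to 29.8). Its change was -0.24 (SE 0.04, limma adjusted p = 0.000116), lower under all 3 scalings. Psme2b, at about 1 TPM, had a change of -0.22 with an SE of 0.24 and did not pass.

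Psmd9, a chaperone that acts in the assembly of the ATPase ring, was the 1 member whose genotypes did not overlap, as for 1.67% of all genes. Its WT libraries lay between 7.41 and 8.72 TPM (median 8.15) and its KO libraries between 8.74 and 12.3 TPM (median 10.8). The lowest KO value was again that of the library labelled KO ZT4 A. Psmd9 rose by 0.39 (SE 0.04, limma adjusted p = 6.26e-07) and by 0.42 without that library. The chaperones Psmd5 (-0.01) and Psmd10 (0.03) did not pass as deposited and passed as lower under median-of-ratios scaling.

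All 4 core chaperone genes, whose products guide alpha and beta ring assembly, rose as deposited, the direction of 50.9% of all genes. Psmg4 ran from 11.6 to 16.7 TPM in WT (median 14.2) and from 13.4 to 19.95 TPM in KO (median 17.7) and rose by 0.32 (SE 0.07, limma adjusted p = 0.000499). Psmg3 rose by 0.20, Psmg2 by 0.19 and Psmg1 by 0.12. Under median-of-ratios scaling Psmg4 still passed (0.17), whereas Psmg3 (0.06), Psmg2 (0.04) and Psmg1 (-0.02) did not. Psmf1 rose by 0.15 (SE 0.04, limma adjusted p = 0.00169) and was at 0.00 under that scaling. Psmc3ip did not pass, at -0.00 with an SE of 0.09.

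**Figure D2:**
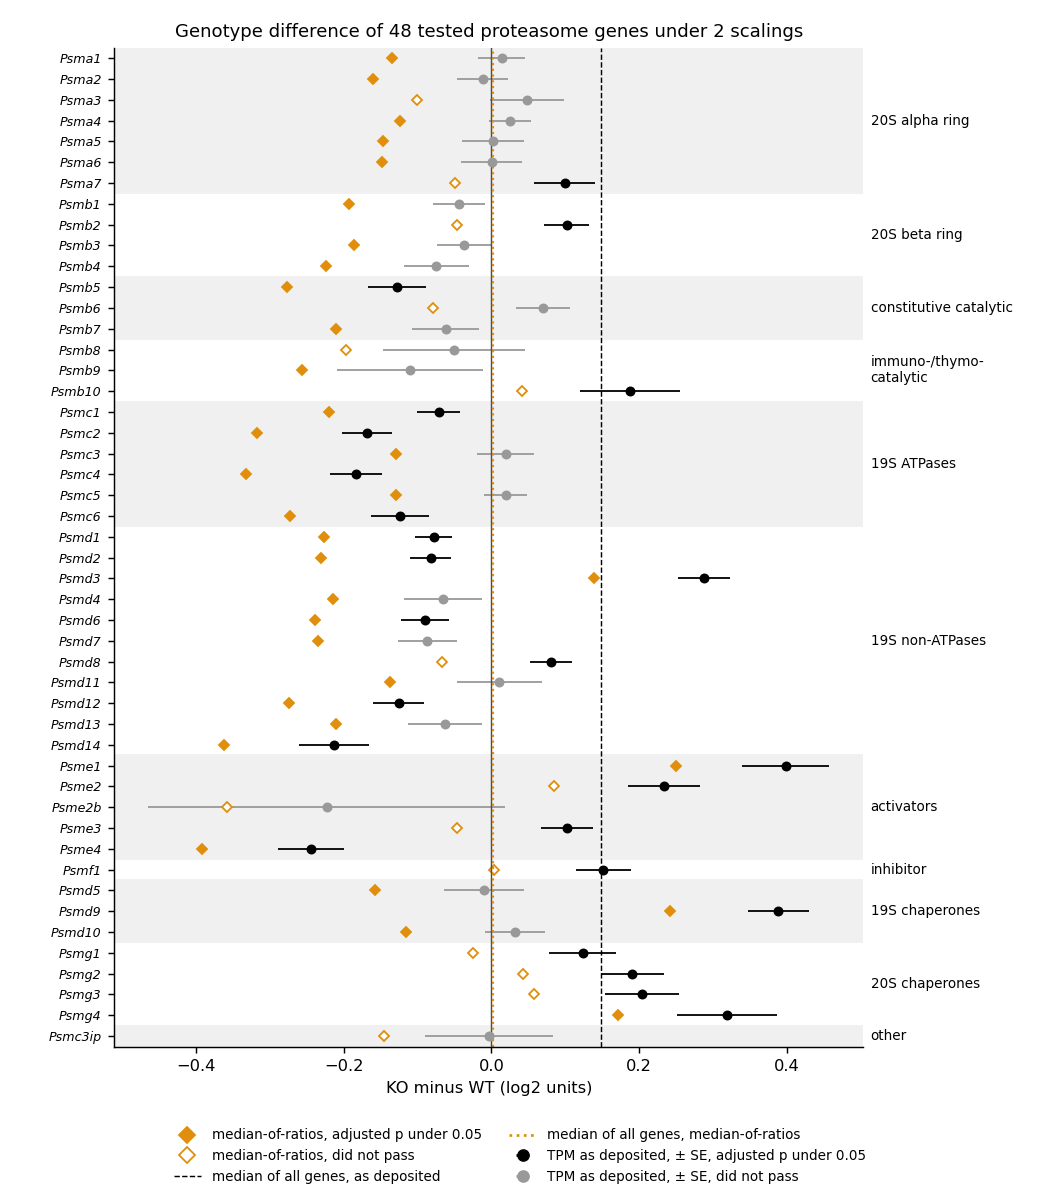
KO minus WT difference in log2 units for the 48 tested members by role, on TPM as deposited (circles, bars are ± SE) and after median-of-ratios scaling (diamonds), with the medians of all genes as dashed and dotted lines. The ATPase genes lie at or left of 0.02 under both scalings, while Psme1, Psmd9, Psmg4 and Psmd3 lie right of 0.13 under both.

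The ratio of an immunoproteasome gene to its constitutive partner within a library does not depend on scaling between libraries. Psmb10 was 5.93% to 8.70% of Psmb7 in WT (median 6.90%) and 6.90% to 11.8% in KO (median 8.26%). The KO mean was higher at 6 of 6 times, and libraries overlapped. The mean log2 ratio was 0.25 higher in KO (exact two-sided permutation of genotype within time, 46656 relabellings, p = 0.0103, adjusted p = 0.031 over 3 pairs). The highest values were 11.8% in KO ZT12 replicate A and 11.7% in KO ZT16 replicate A. The second came with the lowest Psmb7 value of any library, 74.2 TPM. Leaving out single libraries kept the call in 14 of 24 cases, and the adjusted exact permutation p then ran from 0.0126 to 0.12. The smallest came without the library labelled KO ZT4 A, where the log2 difference was 0.28, and the largest without KO ZT12 replicate A, where it was 0.20. With protein-coding transcripts alone the adjusted exact permutation p was 0.0553, and with the replicate letter as a block it was 0.0908.

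Psmb8 was 5.00% to 11.9% of Psmb5 in WT (median 6.82%) and 6.15% to 10.5% in KO (median 6.96%). The log2 difference was 0.08 (exact two-sided permutation p = 0.507, adjusted p = 0.507). Psmb9 was 4.87% to 9.89% of Psmb6 in WT (median 5.69%) and 4.43% to 7.94% in KO (median 5.31%), a log2 difference of -0.18 (exact two-sided permutation p = 0.113, adjusted p = 0.169). The KO mean of this ratio was lower at 5 of 6 times. Without the library labelled KO ZT4 A it was -0.12 and that of Psmb8/Psmb5 0.10. Replicates at 1 time could lie far apart, as at WT ZT12, where Psmb8 was 7.41% and 11.9% of Psmb5. In WT the replicate lettered B exceeded A at 6 of 6 times for Psmb9/Psmb6 and at 5 of 6 for each of the other ratios, and in KO at 3 and at 2 of 6.

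Leukocyte markers moved with genotype beside these ratios. Of the 7 tested of 10 markers, 5 were lower in KO and none higher, against 10% and 50.9% of all genes. The 5 were Cd52, Adgre1, C1qa, Cd74 and H2-Aa. The summed level of the 10 markers was 212.8 to 435.3 TPM in WT (median 274.8) and 160.4 to 281.0 TPM in KO (median 222.2). In WT this sum was higher in B than in A at 6 of 6 times, and in KO at 3 of 6. Cd3e, Cd79a and Itgam, which mark T cells, B cells and myeloid cells, had means under 1 TPM in these libraries. Markers of distal tubule and collecting duct passed as higher in KO for 3 of 3 genes, where 50.9% of all genes were higher. Podocyte and smooth muscle markers did so for 2 of 2 genes each and endothelial markers for 2 of 3. Of 2 loop of Henle markers, 1 was higher and 1 lower. Under median-of-ratios scaling (22.1% of all genes higher) these counts were the same, except that 1 endothelial marker was higher. Of 4 proximal tubule markers, Kap fell by 0.81, Slc5a2 rose by 0.45, and Lrp2 (0.00) and Slc34a1 (0.07) did not pass as deposited. The part of cell composition and of the replicate letter in the proteasome values was not tested.

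**Figure D3:**
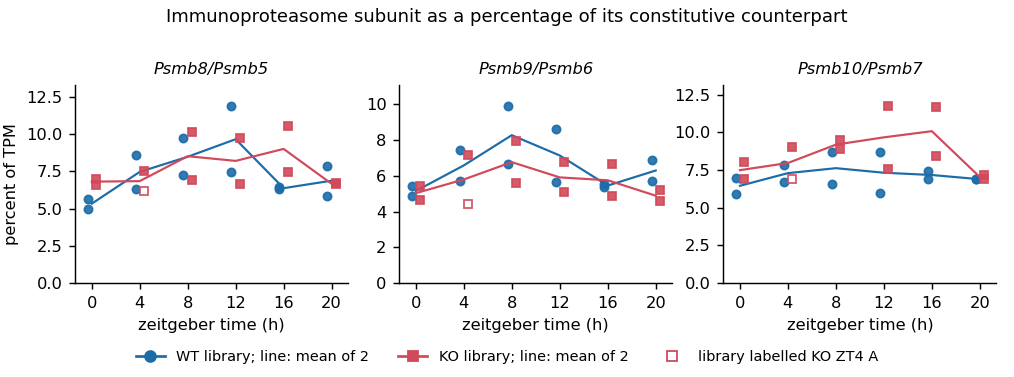
Each immunoproteasome gene as a percentage of the TPM of its constitutive partner, by zeitgeber time, with 1 point per library (blue circles, WT; red squares, KO; open square, the library labelled KO ZT4 A) and lines through the means of 2 libraries. For Psmb10/Psmb7 the KO mean lies above the WT mean at all 6 times, and for the other pairs the order changes between times.

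The rhythm comparison asks whether members followed a 24-hour cosine in each genotype. In WT, 5 of the 48 tested members passed (limma moderated F, adjusted p under 0.05), against 13.7% of all genes. The median fitted peak-to-trough range of members in WT was 0.14 log2 units, against 0.25 for all genes. Fitted peaks lay between ZT20 and ZT4 for 34 of 48 members (70.8%) and for 47.9% of all genes. Both shares take every tested gene, rhythmic or not, and 14 members had an unadjusted limma p under 0.05 in WT. Many of these peaks are poorly placed, with standard errors of up to 16.55 h (Psme1). Summed over the 50 members, WT means ran from 3314 TPM at ZT0 to 2959 TPM at ZT12. KO means ran from 3323 TPM at ZT8 to 3040 TPM at ZT12 and ZT16. Within the fixed total of each library, mitochondrial genes took 38.7% and 38.0% at WT ZT0 and 41.3% and 42.5% at WT ZT12. The part of that share in the sums was not tested.

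Psmd11, a lid subunit, had the widest fitted range in WT. Its values were 62.0 and 62.8 TPM at ZT0, 57.5 and 51.4 at ZT4, 49.0 and 41.6 at ZT8, 33.2 and 40.3 at ZT12, 45.8 and 46.5 at ZT16, and 52.7 and 54.1 at ZT20. Both ZT0 libraries stood above all others and both ZT12 libraries below. The fitted peak was at 23.98 h (SE 0.47 h), close to ZT0, with a peak-to-trough of 0.67 (SE 0.08, limma adjusted p = 8.25e-05). In KO the 12 values ran from 45.6 to 56.4 TPM, with a fitted range of 0.16 (SE 0.08, limma adjusted p = 0.449). The difference in rhythm between genotypes did not pass (limma adjusted p = 0.0843, unadjusted 0.00102).

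The other 4 rhythmic members in WT were Psme3, Psmd7, Psma1 and Psmg3, with fitted peaks between 21.9 h and 22.9 h. Psme3 was at 45.6 and 41.3 TPM at ZT0 and at 32.1 and 34.4 TPM at ZT8, and its range was 0.34 (SE 0.08, limma adjusted p = 0.0247). The fitted KO range of Psme3 was 0.33 with a peak at 21.7 h (limma adjusted p = 0.0627). Psmd7, a lid subunit, was at 42.7 and 43.2 TPM at ZT0 and 31.3 and 33.2 TPM at ZT8 (range 0.31, SE 0.08, limma adjusted p = 0.0303). Psma1, an alpha ring subunit, was at 76.5 and 79.4 TPM at ZT0 and 58.8 and 63.9 TPM at ZT12 (range 0.24, limma adjusted p = 0.0378). Psmg3 was at 12.1 and 12.8 TPM at ZT0 and 9.16 and 9.60 TPM at ZT12 (range 0.36, limma adjusted p = 0.0409). For each of these genes both ZT0 libraries exceeded every other WT library.

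Only Psmd11 of these 5 passed in every fit that left out 1 library. Psme3 passed in 20 of 24, Psmd7 in 19, Psma1 in 16 and Psmg3 in 15. With protein-coding transcripts alone Psme3 did not pass (range 0.22, limma adjusted p = 0.165), while Psmd11, Psmd7, Psma1 and Psmg3 did. Under median-of-ratios scaling Psmd7 (limma adjusted p = 0.0975), Psma1 (0.155) and Psmg3 (0.0646) did not pass, and with the 20 highest genes out of the totals Psmd11 alone passed. Just outside the threshold in WT were Psmd5 (range 0.38, peak 20.1 h, limma adjusted p = 0.0508) and the ATPase gene Psmc5 (range 0.22, peak 23.1 h, limma adjusted p = 0.0536).

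In KO, 4 of 48 members passed, against 3.64% of all genes, and none of them was among the 5 that passed in WT. Psmd14 was at 45.0 and 44.6 TPM at ZT4, 31.8 and 31.9 at ZT12 and 30.0 and 41.6 at ZT16. Its fitted range was 0.45 (SE 0.09, peak 1.2 h, limma adjusted p = 0.0218). In WT its fitted range was 0.26 with a peak at 0.8 h (limma adjusted p = 0.124), and the difference did not pass (limma adjusted p = 0.702). Psmd1, the scaffold of the base, had a KO range of 0.23 with a peak at 0.7 h (limma adjusted p = 0.0291). Psmb5 had a range of 0.32 with a peak at 3.0 h (limma adjusted p = 0.0372) and Psmb7 a range of 0.35 with a peak at 2.8 h (limma adjusted p = 0.0402).

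Without the library labelled KO ZT4 A, Psmb5 (range 0.28, limma adjusted p = 0.0843) and Psmb7 (range 0.35, limma adjusted p = 0.0614) did not pass, while Psmd14 (limma adjusted p = 0.0394) and Psmd1 (0.0426) did. The Psmb7 call was also lost without KO ZT16 replicate A, which held its lowest value (range 0.24, limma adjusted p = 0.0824). Over the 24 fits without 1 library Psmd14 passed in 22, Psmd1 in 20, Psmb5 in 17 and Psmb7 in 14. Under median-of-ratios scaling Psmd14 passed, and Psmd1 (limma adjusted p = 0.0727), Psmb5 (0.097) and Psmb7 (0.0788) did not. When KO libraries were fitted alone, 0 of 48 members passed, but only 12 of all 12874 genes did. In KO, fitted peaks lay between ZT20 and ZT4 for 24 members (50%) and for 33.1% of all genes, again counting genes rhythmic or not. The median fitted range of members in KO was 0.18 against 0.21.

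The test of the difference in rhythm passed for 0 of 48 members by limma, against 0.629% of all genes, and 5 members had an unadjusted p under 0.05, as had 13.7% of all genes. The 5 were Psmd11, Psma3, Psmd13, Psmb7 and Psmb3, with adjusted limma p from 0.0843 to 0.352. A rhythm called in 1 genotype alone was thus not shown to differ between genotypes for any member.

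**Figure D4:**
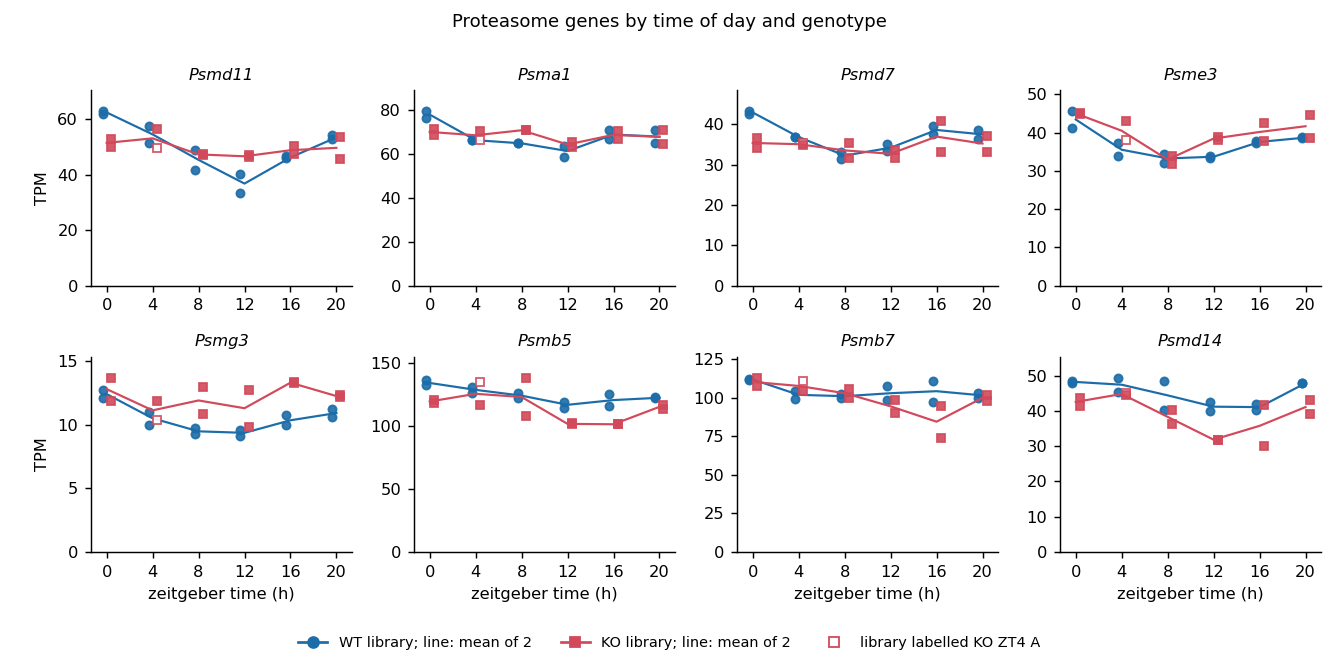
TPM by zeitgeber time for the 5 members called rhythmic in WT and for Psmb5, Psmb7 and Psmd14, called in KO, with 1 point per library (blue circles, WT; red squares, KO; open square, the library labelled KO ZT4 A) and lines through the means of 2 libraries. Psmd11 falls from above 61 TPM at ZT0 to 33.2 and 40.3 TPM at ZT12 in WT and stays between 45.6 and 56.4 TPM in KO.

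No immunoproteasome gene passed the rhythm test in WT. Psmb8 had a fitted range of 0.55 (SE 0.18) with a peak at 9.3 h (SE 1.3 h, limma adjusted p = 0.111). Psmb9 had 0.41 (SE 0.21) with a peak at 8.5 h (SE 2.0 h, limma adjusted p = 0.359) and Psmb10 0.10 (SE 0.13) with a peak at 9.1 h (SE 5.2 h, limma adjusted p = 0.857). The constitutive partners had fitted WT ranges of 0.17 (Psmb5, peak 1.5 h, SE 1.6 h), 0.09 (Psmb6, peak 22.4 h, SE 3.1 h) and 0.08 (Psmb7, peak 22.9 h, SE 4.0 h), and none passed. No test of the difference in peak between these groups was run.

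**Figure D5:**
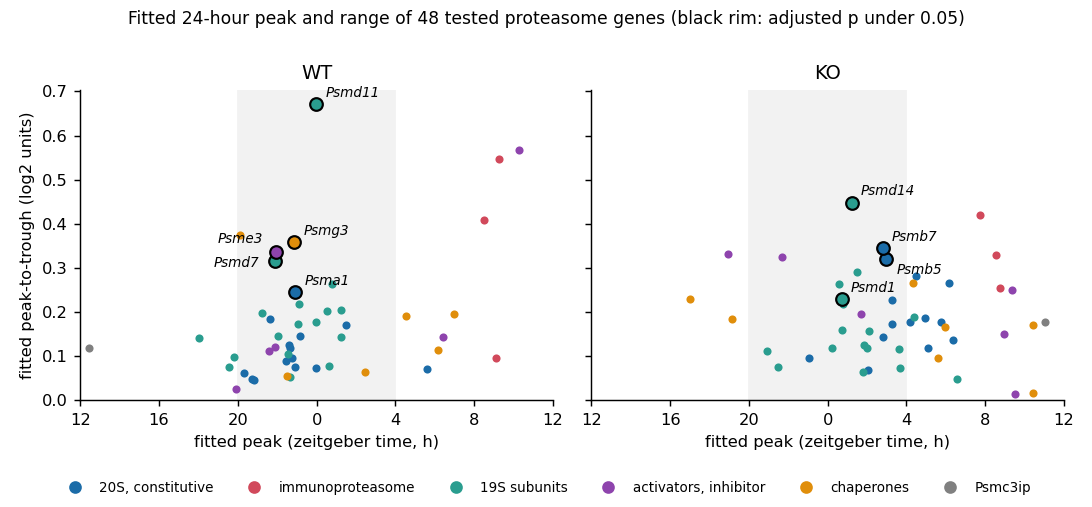
Fitted 24-hour peak time (horizontal, hours; shaded from ZT20 to ZT4) against fitted peak-to-trough range (vertical, log2 units) for the 48 tested members in WT and KO, coloured by role; a black rim and a name mark an adjusted p under 0.05. In WT 34 points lie in the shaded span, and Psmb8, Psmb9 and Psmb10 lie between 8 and 10 h.

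Genes that work with the proteasome were counted from a list of 22, all of them tested. In KO 8 of them were higher and 4 lower as deposited (50.9% and 10% of all genes), and under median-of-ratios scaling 3 were higher and 12 lower (22.1% and 22.2% of all genes). Nfe2l1, which encodes the transcription factor that induces proteasome genes when proteolysis is short, rose by 0.53 (SE 0.06, limma adjusted p = 1.55e-06) and by 0.38 under median-of-ratios scaling. Ubqln2, a shuttle factor, and Rps27a, a ubiquitin fusion gene, were also higher under all 3 scalings (0.26 and 0.35 as deposited). Higher as deposited but not under median-of-ratios scaling were Sem1, Uchl5, Ubqln1, Ubqln4 and Uba1. The 4 lower genes were Nploc4 (-0.27), Adrm1 (-0.18), Ufd1 (-0.14) and Vcp (-0.08), each lower under all 3 scalings. Ufd1 was near the threshold as deposited (limma adjusted p = 0.0454). It did not pass with protein-coding transcripts alone (-0.05, limma adjusted p = 0.541). Its change was -0.14 without the library labelled KO ZT4 A. Its highest WT value, 33.4 TPM, was in ZT12 replicate B, where replicate A was at 22.2 TPM. Vcp, Nploc4 and Ufd1 encode the segregase that extracts ubiquitinated proteins, and Adrm1 a ubiquitin receptor of the proteasome.

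Pomp, the maturation factor of the core, had a change of -0.03 and did not pass as deposited. In WT, 3 of the 22 passed the rhythm test, against 13.7% of all genes (Ubqln1, range 0.57, peak 21.7 h; Vcp, range 0.22, peak 23.5 h; Ngly1, range 0.22, peak 23.5 h), and in KO only Ubqln1 did. Under median-of-ratios scaling Ubqln1 still passed in WT, but Vcp (limma adjusted p = 0.253) and Ngly1 (0.284) did not. With the 20 highest genes out of the totals Ubqln1 again passed, and Vcp (limma adjusted p = 0.16) and Ngly1 (0.149) did not. None of the 22 passed the test of the difference by limma.

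Of 10 genes of antigen presentation and interferon response, 2 were higher in KO as deposited (B2m, 0.24, and Erap1, 0.14) and none lower, against 50.9% and 10% of all genes. Neither passed under median-of-ratios scaling, where Irf1, an interferon-response factor, was lower (-0.23). Tap1 carries peptides into the endoplasmic reticulum and is a neighbour of Psmb8 and Psmb9 in the MHC. It was the 1 gene of these 10 to pass the WT rhythm test, against 13.7% of all genes. Its fitted range was 0.90 with a peak at 7.7 h (limma adjusted p = 0.0158). The leukocyte genes Cd74 and H2-Aa had fitted WT peaks at 8.7 h and 8.1 h with ranges of 0.36 and 0.35, and did not pass. Adgre1, another leukocyte marker, went the other way in WT, with 1.193 and 1.66 TPM at ZT8 and 1.615 and 2.168 TPM at ZT20. Fitted peaks of the other leukocyte markers are not given here, so a peak shared by leukocyte genes is not shown. The part of leukocyte genes in the fitted course of Psmb8, Psmb9 and Tap1 was not tested.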

How the data were processed

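The authors deposited TPM per transcript for 24 kidney RNA libraries. They used kallisto 0.42.4 and the builds GRCm38 and mm10, per the submitters' processing notes. The 20 4C-seq libraries were not used here. Transcripts were summed to genes through GENCODE M21 by identifier without version. Of 88198 transcripts 86119 matched, and the rest held 1.35% to 2.24% of TPM per library. Values were analysed as log2(TPM + 0.1) for genes averaging 1 TPM or more, so a change is on that scale and is understated for low genes. limma 3.58.1 (trend and robust options) in R 4.3.3 gave the genotype coefficient with time as a 6-level factor, and the 24-hour cosine and sine per genotype. p-values were Benjamini-Hochberg adjusted over all genes, with a threshold of 0.05. Ratios were tested by exact permutation of genotype within time. The fits were tested on simulated data. Alternatives were other pseudocounts and filters, scalings, transcript sets, time terms, a replicate block and each library left out. Members, gene lists and tests were chosen with earlier results of these data known. Named were the catalytic genes, Psme1 and Psme2, the members with the smallest p-values per test and role, those with the lowest and highest level per role, and members under the minimum. Other names, Psmg1, Psmg2, Psmd6 and Psmd12 among them, were chosen after their values were seen. One gene of the list of genes that work with the proteasome is not reported here.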

Additional observations from a re-analysis of the deposited data

How the results depend on the processing

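The number of members higher in KO was 14 and went to 4 under median-of-ratios scaling, 7 with the 20 highest genes out of the totals, and 4 when median-of-ratios scaling was combined with leaving out the library labelled KO ZT4 A, an alternative added after seeing the data. The number lower was 11 and went to 29, 20 and 29 in the same order. Psma7 reversed to -0.0493 and -0.0443 under the first and last of these, and Psmb2 to -0.0466 and -0.0470. Scaling moved the median of all genes, as given above; the cause of that shift was not tested. The 5 rhythmic members in WT became 2 without a filter on low values, 2, 1 and 2 under those scalings, 10 with each genotype fitted alone and 1 with time as a 6-level factor. All genes rhythmic in WT became 2843 and 576 in the last pair of fits. The 4 rhythmic members in KO became 2 without a filter, 2 under median-of-ratios scaling and 1 when the library labelled KO ZT4 A was also left out, and 0 with each genotype alone or with time as a factor. All genes rhythmic in KO became 295 without a filter, 12 alone and 28 with the factor. All genes with a difference in rhythm became 43 without a filter, 23 with the factor and 124 under the added alternative. The cause of these changes was not tested.

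Leaving out 1 library at a time gave 13 to 15 members higher and 10 to 14 lower. Members rhythmic in WT ran from 1 to 8: 1 without WT ZT0 A, WT ZT0 B or WT ZT8 A, 2 without WT ZT8 B, WT ZT12 A or WT ZT12 B, 3 without WT ZT16 B, and 8 without KO ZT8 A. Members rhythmic in KO ran from 0 to 6: 0 without KO ZT12 A, 1 without KO ZT0 B or KO ZT12 B, 2 without WT ZT4 A or KO ZT8 B, and 6 without KO ZT8 A. Over all genes these counts ran from 1193 to 2140 in WT, 272 to 620 in KO and 37 to 112 for the difference, which held 0 members in each fit. The log2 difference of Psmb10/Psmb7 ran from 0.20 to 0.30.

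Over all genes, deviations of A libraries from their group means correlated at -0.32 to 0.34 over 66 pairs of groups, so the letters were not taken as pairs. In WT, however, B libraries held more genes at or above 1 TPM than A at 6 of 6 times, beside the immune values given above, and in KO at 2 of 6. With the replicate block the members' counts were again 14 higher, 11 lower, 5, 4 and 0. The Psmb10/Psmb7 difference was 0.25 with the block but its adjusted exact permutation p was 0.0908, and with protein-coding transcripts alone the difference was 0.22. Read depth is unknown, so how counting error limits members near 1 TPM cannot be given.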
